A study of Mus musculus with 4 samples.

Results

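Hgf, Kitl, Fgf2, Fgf7, Fgf10, Pdgfa, Pdgfc, Areg and Ereg are 9 genes for secreted growth factors that fibroblasts are known to make, and their expression was followed from early to late passage. Every non-control probe whose design accession is a mouse RefSeq transcript of one of these genes was taken, which gave 13 of the 43553 probes and 9 of the 17466 named genes on the array. The rule itself uses no measured value, but the genes were chosen with earlier results of these data known. Hgf, Fgf2, Fgf7 and Ereg had 2 probes each, and the other genes had 1.

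RNA came from mouse embryonic fibroblasts (MEFs), connective tissue cells taken into culture from embryos, which stop dividing after some passages. Growing cells at passage 2 were set against cells at passage 7, where replicative senescence, the lasting arrest after repeated division, set in. Both passages had the same medium with serum and antibiotics and were split every 3 to 4 days, and strain, genotype and embryo age are not given in the sources used here. Each passage was hybridised to 2 one-colour arrays, named replicates 1 and 2, and the RNA of 3 independent cultures was pooled beforehand. Both arrays of a passage could thus be repeats of one pool, so the p-values measure only the spread between arrays. All 4 arrays shared 1 slide and 1 scan, and slide position and passage cannot be told apart.

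Growth factors of this kind are made by stromal cells and act on receptor tyrosine kinases, on neighbouring cells or on the fibroblasts themselves. HGF, hepatocyte growth factor, is released as an inactive precursor, is cut by serine proteases and then binds MET, and KITL, stem cell factor, binds KIT on mast cells, melanocytes and germ cells. FGF7 and FGF10 act mainly on an epithelial form of FGFR2, and FGF2 acts on several FGF receptors; all bind heparan sulfate. PDGFA and PDGFC signal mainly through PDGFRA, and amphiregulin (Areg) and epiregulin (Ereg) are shed from the cell surface by ADAM proteases and bind EGFR.

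Of the 9 genes, 2 rose from passage 2 to passage 7, Fgf10 and Ereg, and 2 fell, Hgf and Kitl, each with a limma adjusted p under 0.05 and at least 2-fold in size. The other 5, Fgf2, Fgf7, Pdgfa, Pdgfc and Areg, did not pass. A change was called in 19.5% of the 13811 genes tested, with 10% higher at passage 7 (1385 genes) and 9.45% lower (1305 genes). The 2 rises and 2 falls among 9 members thus stand against a background in which about 1 gene in 5 changed. At the level of probes, 3 of the 13 rose and 3 fell, against 17.3% of the 30796 probes tested (8.73% higher and 8.55% lower). Among those falls, Hgf probe 1 was tested only through passage 2, since it was not well above background at passage 7. Without passage 2 replicate 2, limma called 0 of the 30796 probes (10349 at an unadjusted p under 0.05), so no probe-level call given here stood in that fit. The median change of the 9 genes was 0.15 on the log2 scale, and that of all genes was 0.20, so the members sat 0.05 below the typical gene. That offset ranged from -0.45 without passage 2 replicate 1 to 0.38 without passage 2 replicate 2, so it has no settled sign. With 1 array left out at a time, rises among the members numbered 3 when passage 2 replicate 1 was absent and 1 when either passage 7 array was absent. The 2 falls passed in all 4 such fits of genes.

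Start-site regions of 4 genes are shown because they belong to the genes with the largest rise and falls, Fgf10, Hgf and Kitl, and to Areg, whose neighbour Ereg rose while its own change did not pass. Each run is the 250 bases before the annotated start in RefSeq's GRCm38.p6 annotation, plus strand, 5′ to 3′. Capitals mark matches to a TATA box (TATAAA), a GC box (GGGCGG) or a cyclic AMP response element (TGACGTCA), searched on both strands.
Hgf (chr5:16553245-16553494): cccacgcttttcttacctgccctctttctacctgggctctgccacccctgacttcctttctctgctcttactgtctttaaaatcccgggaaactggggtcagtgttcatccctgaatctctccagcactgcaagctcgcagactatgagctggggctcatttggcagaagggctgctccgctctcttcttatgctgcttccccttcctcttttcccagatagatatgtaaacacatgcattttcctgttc
Kitl (chr10:100015571-100015820): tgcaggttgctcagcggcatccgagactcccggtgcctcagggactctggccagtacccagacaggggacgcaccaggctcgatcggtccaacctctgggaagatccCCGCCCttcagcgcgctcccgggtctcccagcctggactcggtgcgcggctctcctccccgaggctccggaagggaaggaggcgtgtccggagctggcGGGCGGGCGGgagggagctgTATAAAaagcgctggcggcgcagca
Fgf10 (chr13:118714449-118714698): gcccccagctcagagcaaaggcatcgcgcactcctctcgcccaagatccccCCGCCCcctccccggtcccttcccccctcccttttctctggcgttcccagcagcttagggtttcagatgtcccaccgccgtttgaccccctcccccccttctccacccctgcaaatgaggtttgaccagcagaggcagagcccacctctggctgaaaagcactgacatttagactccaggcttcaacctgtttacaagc
Areg (chr5:91139349-91139598): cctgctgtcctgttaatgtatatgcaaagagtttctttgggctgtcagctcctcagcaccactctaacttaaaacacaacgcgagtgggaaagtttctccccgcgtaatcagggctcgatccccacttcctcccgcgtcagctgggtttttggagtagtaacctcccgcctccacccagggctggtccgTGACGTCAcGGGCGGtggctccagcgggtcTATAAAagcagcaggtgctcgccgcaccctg

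The search also covered the CCAAT box (CCAAT), the AP-1 site (TGANTCA) and the E-box (CACGTG). The Areg region held a cyclic AMP response element 61 bases before the start, a GC box at 52 and a TATA box at 31. The Kitl region held a TATA box at 25 and GC boxes at 143, 45 and 41, of which the last 2 overlap. The Fgf10 region held a GC box at 199 bases before the start, and the Hgf region shown held none of the 6 motifs. The table lists 2 starts for Hgf, and the region before the other (chr5:16553651-16553900) also held none. Over the 32851 regions of this length in the table, 1.55% held the response element, 12.4% the TATA box and 32.7% the GC box. The GC content was 50.8% for Hgf, 69.2% for Kitl, 61.2% for Fgf10 and 57.2% for Areg, against a median of 52.4%. RefSeq start regions were found for 8 of the 9 members, all except Ereg. These matches describe the letters only, and binding was not measured.

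**Figure D1:**
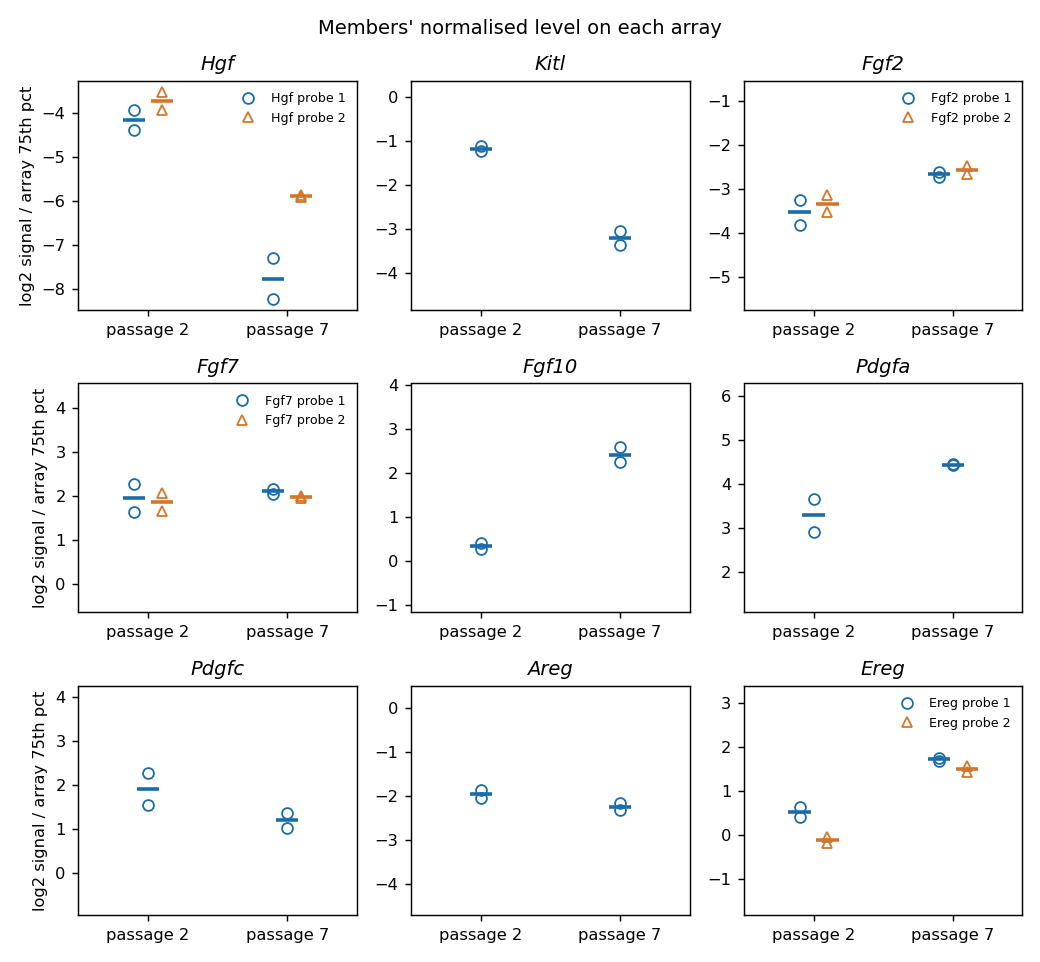
Level of each of the 9 genes on each array, as log2 of the processed signal over that array's 75th percentile; each point is 1 array, each bar the mean of 2, and genes with 2 probes have circles and triangles. The arrays of Hgf, Kitl, Fgf10 and Ereg lie far apart between passages, while those of Fgf7 overlap.

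Levels are given as log2 of the background-subtracted signal over the array's own 75th percentile, so that 0 means a signal equal to that percentile. Only the same probe is compared between arrays, because probes differ in how brightly they report. In RNA from a whole culture, fewer cells of a type and less RNA per cell cannot be told apart.

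Hgf and Kitl, the factors that act on MET and KIT, were both lower at passage 7. The brighter Hgf probe (probe 2) read -3.93 and -3.53 at passage 2 and -5.91 and -5.86 at passage 7. Both late arrays lay below both early ones. The mean fell from -3.73 ± 0.28 to -5.88 ± 0.04 (SD, n = 2 arrays), a log2 change of -2.16 ± 0.22 (SE; 95% interval -2.73 to -1.59; limma adjusted p = 0.0076), or 4.46-fold lower. Probe 1 of Hgf moved the same way, from -4.39 and -3.93 to -7.30 and -8.23. Those late values are not well above background on either array, so its level at passage 7 has only an upper bound. With the scanner's own background subtraction, the fall at that probe was at least 5.29-fold. That bound sets the passage 2 mean against, per passage 7 array, the higher of the probe's own level and the lowest level well above background there. Probe 1 entered the test of probes only through passage 2. Its limma adjusted p of 0.013 in that test belongs to the fitted change, not to the bound.

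Hgf is a dim gene on these arrays, and the size of its fall depended on how background was removed. The processed signal of probe 2 was 67.4 and 122 units at passage 2 and 16.0 and 6.93 units at passage 7, with scanner errors of 6.89, 12.2, 2.22 and 1.49 units. With a model-based correction, normexp, in place of the scanner's own subtraction, the change was 0.79 (limma adjusted p = 0.75), the opposite direction. With normexp and quantile normalisation it was -0.73 (limma adjusted p = 0.022), under the 2-fold minimum. With normexp after marked backgrounds were replaced it was -0.30 (limma adjusted p = 0.58). The fall of Hgf passed in 15 of 18 alternative analyses, all except these 3. In the same 3, in that order, the change at probe 1 was 1.04, -0.72 and -0.18. Its bound thus holds only for the scanner's own subtraction. Alternatives that change only the test, the fold minimum or the filter on dim probes keep the main log2 change of any gene. They could not turn a direction.

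Kitl read -1.22 and -1.12 at passage 2 and -3.04 and -3.35 at passage 7. The groups did not overlap, and the gap between them, 1.82, was many times the difference between arrays of a passage. Its mean went from -1.17 ± 0.07 to -3.19 ± 0.22 (SD, n = 2 arrays), a change of -2.02 ± 0.20 (SE; 95% interval -2.55 to -1.49; limma adjusted p = 0.0074), 4.07-fold lower. Kitl passed in 17 of 18 alternatives and kept its direction in all 18, but several of these reuse the same values and could not turn it. Kitl has 1 probe, so the alternatives on the choice of probe could not either. Under plain normexp the change was -0.42 (limma adjusted p = 0.82). With 1 array left out it ranged from -2.18 to -1.87, and Hgf from -2.36 to -1.96.

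The 3 fibroblast growth factors each behaved in their own way: Fgf10 rose, Fgf2 was higher without passing, and Fgf7 overlapped between passages. Fgf10, a mesenchymal factor needed for budding of lung and limb, read 0.29 and 0.41 at passage 2 and 2.25 and 2.59 at passage 7. Both late arrays stood well above both early ones. The mean rose from 0.35 ± 0.08 to 2.42 ± 0.24 (SD, n = 2 arrays), a change of 2.07 ± 0.21 (SE; 95% interval 1.53 to 2.62; limma adjusted p = 0.0076), 4.21-fold higher. Relative to the median of all genes the rise was 1.87. It was higher in all 18 alternatives and passed in 17, with 1.51 under plain normexp (limma adjusted p = 0.56), and it ranged from 1.90 to 2.24 with 1 array left out. The single probe does not say which transcript form was measured.

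Fgf2, basic fibroblast growth factor, read -3.14 and -3.54 at passage 2 and -2.49 and -2.68 at passage 7 at its brighter probe. The groups did not overlap. The change of 0.75 ± 0.22 (SE; 95% interval 0.17 to 1.34) was 1.69-fold and did not pass (limma adjusted p = 0.070). The other probe gave -3.25 and -3.82, then -2.62 and -2.73, a change of 0.86 ± 0.27 (SE). Both probes lay in the same order on all 4 arrays, as probes of 1 gene on the same RNA do. Nudt6, known as the antisense partner of Fgf2, overlaps it in the reference annotation, and its probe rose by 1.06 ± 0.21 (SE; limma adjusted p = 0.037 in the test of probes). It read -1.23 and -1.48 at passage 2 and -0.38 and -0.20 at passage 7. Whether either gene's probes read the other strand's transcript was not tested.

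Fgf7, keratinocyte growth factor, did not move beyond the spread between arrays. It read 1.63 and 2.29 at passage 2 and 2.17 and 2.05 at passage 7 at its brighter probe. Both late values lay inside the range of the early ones. The difference was 0.15 ± 0.28 (SE; limma adjusted p = 0.71). Its 95% interval, -0.58 to 0.88, leaves room for a change in either direction and stays under 2-fold at both ends. The second probe read 1.66 and 2.07, then 2.01 and 1.97, a difference of 0.12 ± 0.23 (SE). The sign turned under quantile normalisation (-0.04), median scaling (-0.02) and plain normexp (-0.08), and without the passage 2 replicate 1 array (-0.18).

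**Figure D2:**
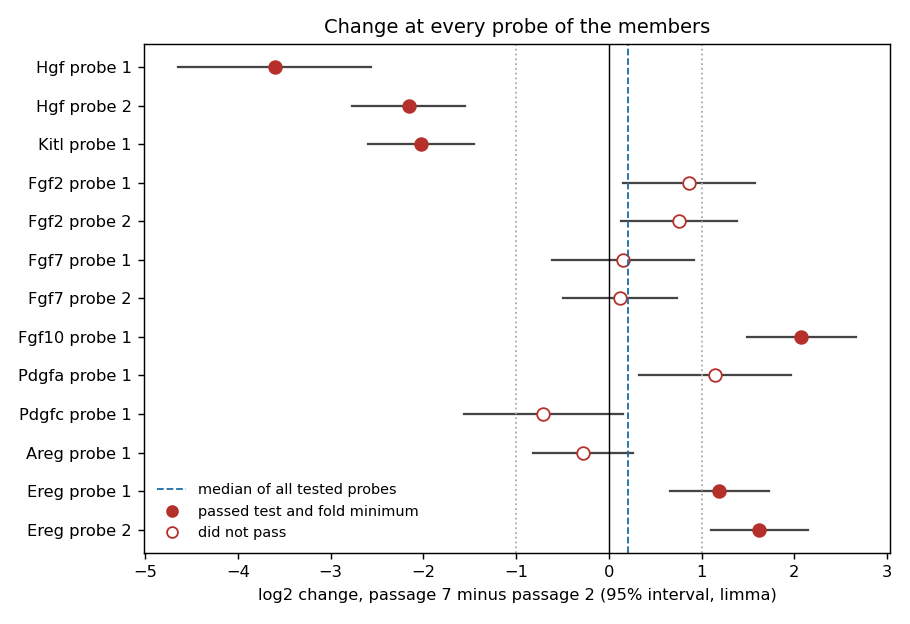
Log2 change from passage 2 to passage 7 at each of the 13 probes, with 95% intervals from the limma fit over all probes; dotted lines mark 2-fold and the dashed line the median of all tested probes (0.21). Filled points passed the test and the fold minimum, and Hgf probe 1 is drawn at its fitted value although it was not well above background at passage 7.

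The PDGF ligands went in opposite directions, and neither passed. Pdgfa, the A chain, read 3.66 and 2.91 at passage 2 and 4.42 and 4.44 at passage 7. The late arrays agreed closely and lay above both early ones, which were themselves 0.74 apart. The mean went from 3.29 ± 0.52 to 4.43 ± 0.02 (SD, n = 2 arrays), a change of 1.14 ± 0.30 (SE; 95% interval 0.36 to 1.93), 2.21-fold, with a limma adjusted p of 0.053. It passed in 7 of 18 alternatives, among them the fit without the passage 2 replicate 1 array (1.51, limma adjusted p = 0.026). Pdgfc, a ligand secreted in latent form, read 1.53 and 2.26 at passage 2 and 1.03 and 1.35 at passage 7. The groups did not overlap, but the gap between them, 0.19, was smaller than the spread within passage 2. The change was -0.71 ± 0.31 (SE; 95% interval -1.53 to 0.11; limma adjusted p = 0.16). In the authors' deposited table of normalised values Pdgfc differed by -1.05 and Pdgfa by 1.08, and both passed there (limma adjusted p = 0.016 and 0.0080).

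The EGF-family ligands Areg and Ereg lie next to each other on chromosome 5, and only the change of Ereg passed the test. Ereg, epiregulin, read 0.42 and 0.64 at passage 2 and 1.75 and 1.68 at passage 7 at its brighter probe. Both late arrays lay about 1 log2 unit above the early ones, with no overlap. The mean rose from 0.53 ± 0.15 to 1.72 ± 0.05 (SD, n = 2 arrays), a change of 1.19 ± 0.19 (SE; 95% interval 0.70 to 1.68; limma adjusted p = 0.017), 2.28-fold higher. The second probe went from -0.18 and -0.05 to 1.58 and 1.43, a change of 1.62 ± 0.20 (SE; limma adjusted p = 0.015 in the test of probes). Ereg was higher in all 18 alternatives and passed in 14. Without either passage 7 array it did not pass (limma adjusted p = 0.095 in both fits), with changes from 1.08 to 1.30 over the 4 arrays left out. Relative to the median of all genes the rise was 1.98-fold, just under the fold minimum.

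Areg, amphiregulin, read -2.04 and -1.88 at passage 2 and -2.15 and -2.33 at passage 7. The late arrays were slightly lower, and the groups stood only 0.11 apart. The change was -0.28 ± 0.19 (SE; 95% interval -0.78 to 0.21; limma adjusted p = 0.32), which does not reach 2-fold at either end of the interval. The difference between the changes of Ereg and Areg was not tested. In the reference order the genes run Mthfd2l, Epgn, Ereg, Areg and Btc. Betacellulin (Btc), another EGFR ligand, changed by 1.17 ± 0.32 (SE; limma adjusted p = 0.070) and 2.25 ± 0.22 (SE; limma adjusted p = 0.011) at its probes in the test of probes. Epigen (Epgn) was well above background on 1 passage 2 array only and was not tested. Mthfd2l, a mitochondrial folate enzyme and no growth factor, fell at all 3 of its probes, with log2 changes of -1.14, -1.09 and -1.097 (limma adjusted p from 0.029 to 0.039 in the test of probes). These calls and those of Btc and Nudt6 were lost without passage 2 replicate 2.

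Arrays of the 2 passages did not overlap for 8 of the 9 genes, all except Fgf7, and the same was true of 68.4% of all genes tested, against 19.5% called. Non-overlap with 2 arrays a side was therefore common. The SD between arrays of a passage, as a robust estimate over all genes, was 0.33 at passage 2 and 0.19 at passage 7. Among the members the early arrays differed most for Pdgfa (by -0.74, replicate 2 minus replicate 1), Pdgfc (0.72) and Fgf7 (0.65).

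**Figure D3:**
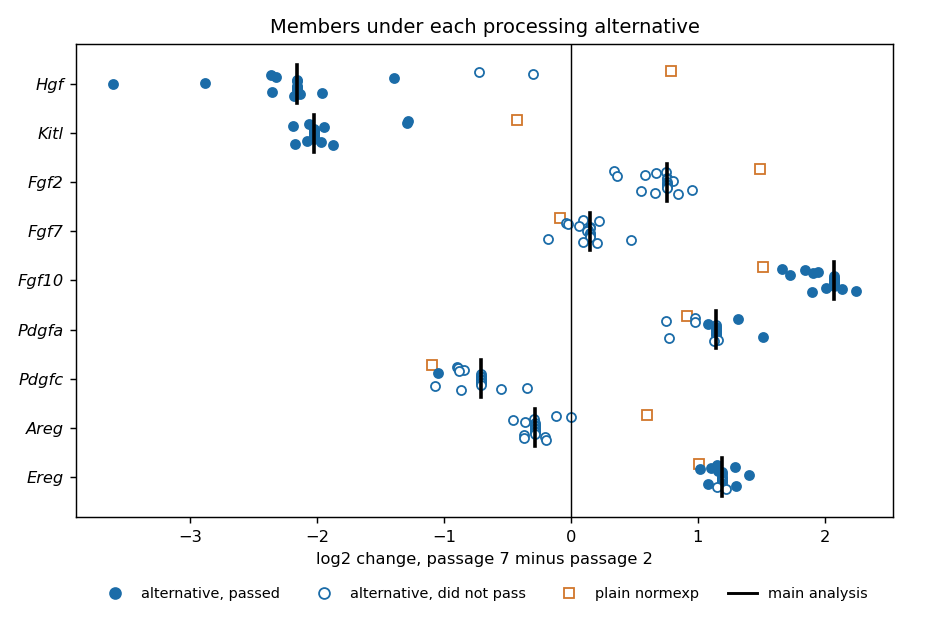
Log2 change of each of the 9 genes under every processing alternative; filled circles passed, open circles did not, squares are the plain normexp correction and black bars the main analysis. Kitl and Pdgfc lie left of 0 and Fgf2, Fgf10, Pdgfa and Ereg lie right of 0 in all 18 alternatives, while Hgf, Fgf7 and Areg have points on both sides. Several alternatives keep the main log2 change and could not move a point.

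The receptors of these ligands were measured in the same RNA, and more of those tested fell than rose. Of 13 listed receptors, 12 had a probe and 10 were tested. Of these, 4 fell (40%) and 1 rose (10%), against 9.45% and 10% of all genes. Their median change was -0.52, or -0.72 relative to all genes. That relative median was -0.39 without passage 7 replicate 1, -0.23 in the authors' deposited table, -0.20 under plain normexp and -0.12 under normexp with quantile normalisation. It was -0.36 when only genes well above background on all 4 arrays were kept. Kit, among the 4 falls, and Fgfr4 were tested only through passage 2 and are left out by that filter. Pdgfra, the receptor for both PDGF chains here and also a marker of fibroblasts, read 0.23 and 0.65 at passage 2 and -2.31 and -1.90 at passage 7. All late values were below all early ones, and the change was -2.54 ± 0.26 (SE; limma adjusted p = 0.0076), 5.83-fold lower, with -3.10 at its other probe. Kit, the receptor of KITL, read -4.41 and -3.78 at passage 2 and was not well above background on either passage 7 array. With the scanner's own background subtraction Kit was at least 5.52-fold lower, and at least 2.37-fold lower at its other probe. Kit entered the test only through passage 2, and its limma adjusted p of 0.0070 belongs to the fitted change, not to the bound. Its log2 change was 0.85 under plain normexp (limma adjusted p = 0.75). Under normexp with quantile normalisation it was -0.83 (limma adjusted p = 0.019), which did not reach the fold minimum. With marked backgrounds replaced it was -0.33 (limma adjusted p = 0.58).

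Met, the receptor of HGF, fell by 1.31 ± 0.22 on the log2 scale (SE; limma adjusted p = 0.020), from -0.90 and -0.47 to -2.03 and -1.95. Its other probe differed by -0.98, under the fold minimum. Fgfr2, which in an epithelial form binds FGF7 and FGF10, read 2.51 and 2.59 at passage 2 and 1.58 and 1.503 at passage 7. Its change of -1.002 ± 0.18 (SE; limma adjusted p = 0.022) lay on the fold minimum itself, and the probes do not say which form was read. Egfr, the receptor of AREG and EREG, rose from -1.32 and -1.13 to -0.21 and -0.03, by 1.099 ± 0.19 (SE; limma adjusted p = 0.022), 2.14-fold, and by 0.93 under median scaling, which is below the fold minimum. Its other probe rose by 1.06 and did not pass (limma adjusted p = 0.0503 in the test of probes).

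Calls of Met and Egfr were lost without either passage 7 array, and that of Fgfr2 without either of these or the passage 2 replicate 2 array. Thus 0 receptors were called higher without either passage 7 array, and 2 were called lower without passage 7 replicate 1. Fgfr1, the main FGF receptor of mesenchymal cells, differed by -0.17 ± 0.19 (SE; limma adjusted p = 0.55), and by 0.06 at its other probe. Erbb3 and Erbb4 were not well above background and were not tested, and Pdgfrb had no probe matched by symbol.

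**Figure D4:**
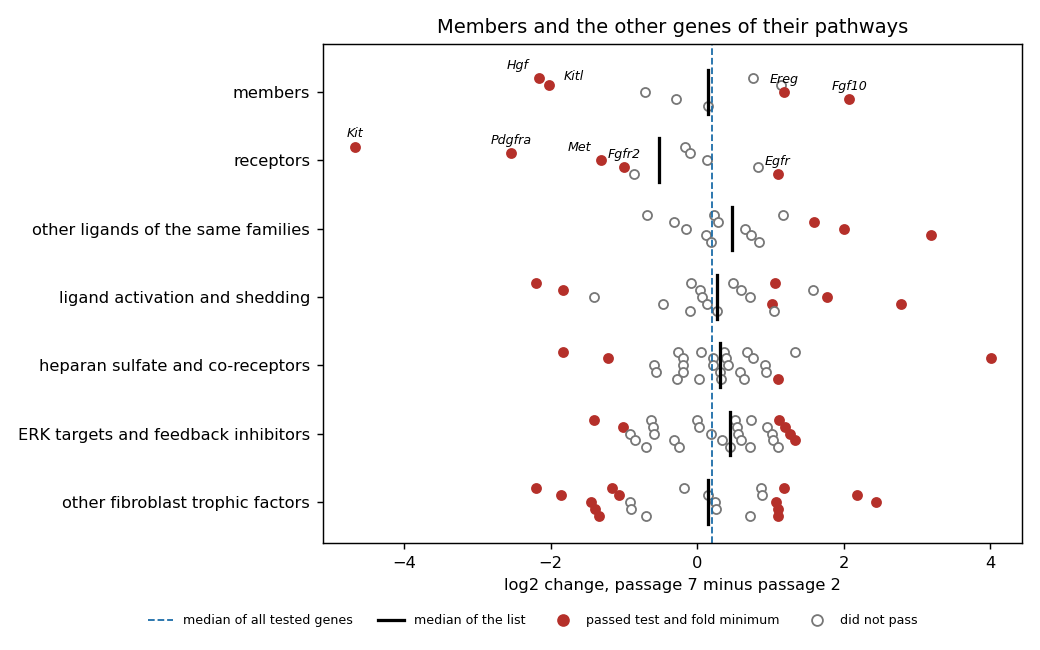
Log2 change of the 9 genes and of each tested gene in 6 lists of related genes; each point is 1 gene, black bars are list medians and the dashed line is the median of all 13811 genes (0.20). Most receptors lie left of the dashed line, and the fitted values of Kit and of the heparan sulfate gene at 4.00 (Ndst4) are drawn although each was not well above background in 1 passage.

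Other ligands of the same families gave 3 rises and 0 falls among 14 tested of 27 listed, and the list's median lay 0.27 above that of all genes. Of all genes tested, 10% rose and 9.45% fell, against 21.4% and 0% of this list. Mst1, macrophage-stimulating protein and a relative of HGF, rose by 3.20 ± 0.28 (SE; limma adjusted p = 0.0065), but by 0.67 under normexp with quantile normalisation. Pdgfb, the PDGF B chain, rose by 2.00 ± 0.24 (SE; limma adjusted p = 0.010). Fgf9 rose by 1.596 ± 0.27 (SE; limma adjusted p = 0.021), with 0.87 at its other probe, and its call was lost without passage 2 replicate 2 or passage 7 replicate 1. The list's median lay 0.62 above that of all genes without passage 2 replicate 1, 0.16 without passage 2 replicate 2 and 0.12 without passage 7 replicate 2. The count of rises was 5 without passage 2 replicate 1, and 2 without passage 2 replicate 2 or passage 7 replicate 1.

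Genes that activate or shed such ligands gave 4 rises and 2 falls among 19 tested of 22. Rises made up 21.1% of those tested, against 10% of all genes. The share of falls was close to the 9.45% of all genes. The list's median lay 0.08 above that of all genes. Spint2, an inhibitor of the proteases that activate HGF, rose by 2.78 ± 0.23 (SE; limma adjusted p = 0.0058), and by 2.88 at its other probe. Hgfac, the HGF activator protease, rose by 1.07 ± 0.25 (SE; limma adjusted p = 0.041), a call kept in 1 of the 4 fits with an array left out, the one without passage 2 replicate 1. The other Hgfac probe rose by 0.96 and did not pass (limma adjusted p = 0.082 in the test of probes). Adam15 rose by 1.77 ± 0.19, while Adam12 and Adam8 fell by 2.20 ± 0.17 and 1.84 ± 0.21 on the log2 scale (SE; limma adjusted p = 0.0090, 0.0056 and 0.0093). These 3 ADAM genes encode membrane metalloproteases. Rises numbered 2 without either passage 7 array. The list's median ranged from -0.05 without passage 7 replicate 2 to 0.22 without passage 7 replicate 1, on the same relative scale, and was 0.01 without passage 2 replicate 1.

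Heparan sulfate enzymes and co-receptors gave 2 rises (7.41%) and 2 falls (7.41%) among 27 tested of 33, against 10% and 9.45% of all genes. The list's median lay 0.11 above that of all genes. Ext1, a chain-elongating enzyme, rose by 1.103 ± 0.23 (SE; limma adjusted p = 0.032). Its other probe rose by 0.77 and did not pass (limma adjusted p = 0.064 in the test of probes). At 0.93 under median scaling and 0.99 in the authors' deposited table, Ext1 was under the fold minimum. Ndst4, a sulfotransferase not well above background at passage 2, was at least 3.56-fold higher with the scanner's own background subtraction. Ndst4 entered the test only through passage 7, and its limma adjusted p of 0.0053 belongs to the fitted change, not to the bound. Its other probe was not well above background on any array, and its change was 0.34 (limma adjusted p = 0.11) under normexp with quantile normalisation and 1.18 (limma adjusted p = 0.088) with marked backgrounds replaced. Gpc3, a glypican, and Hpse, heparanase, fell by 1.84 ± 0.33 and 1.22 ± 0.19 on the log2 scale (SE; limma adjusted p = 0.022 and 0.016). Hpse was -0.15 with marked backgrounds replaced and 0.88 under plain normexp. Without either passage 7 array 1 gene of this list was called higher and 0 lower, and the call of Ext1 was also lost without passage 2 replicate 1. The list's median relative to that of all genes turned to -0.03 without passage 7 replicate 1, -0.18 with marked backgrounds replaced and -0.40 under plain normexp, and was 0.01 without either passage 2 array.

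Targets and feedback inhibitors of the ERK pathway, which these receptors switch on, gave 4 rises (13.8%) and 2 falls (6.9%) among 29 tested of 30. These shares are near those of all genes, 10% and 9.45%. The list's median lay 0.25 above that of all genes. Spred3, an inhibitor of the pathway, rose by 1.34 ± 0.19 at its brighter probe, against 0.19 at the other. Phlda1 rose by 1.26 ± 0.19 and the AP-1 subunit gene Fosl1 by 1.20 ± 0.21 (SE; limma adjusted p for these 3 genes 0.014, 0.016 and 0.021). Errfi1, an inhibitor of EGFR, and Il17rd, an inhibitor of FGF signalling, fell by 1.41 ± 0.22 and 1.01 ± 0.18 on the log2 scale (SE; limma adjusted p = 0.017 and 0.023). None of these calls stood without either passage 7 array, where the list held 0 rises and 0 falls. The calls of Fosl1 and Il17rd were also lost without passage 2 replicate 2. Without passage 2 replicate 1 the list held 7 rises and 3 falls, and its median lay 0.14 above that of all genes, against -0.20 under plain normexp.

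Other trophic factors of fibroblasts moved both ways, with 6 rises (26.1%) and 7 falls (30.4%) among 23 tested of 25, against 10% and 9.45% of all genes. The list's median was -0.06 relative to that of all genes. The neurotrophin gene Ntf3 rose by 2.43 ± 0.17 (SE; limma adjusted p = 0.0051), and Gas6, a ligand of the TAM receptors, by 1.19 ± 0.24 (SE; limma adjusted p = 0.028). The heparin-binding factor midkine (Mdk) fell by 2.19 ± 0.36, Igf1 by 1.86 ± 0.18 and the Wnt enhancer Rspo1 by 1.45 ± 0.21 on the log2 scale (SE; limma adjusted p = 0.018, 0.0071 and 0.015). Without either passage 7 array the list held 2 rises and 2 falls, and Ntf3 and Igf1 passed in all 4 fits with an array left out. Gas6 and Rspo1 were lost without either passage 7 array, and Gas6 also without passage 2 replicate 2. With passage 2 replicate 1 or replicate 2 left out the rises numbered 4, and without passage 2 replicate 2 the falls numbered 4; Mdk was lost without either passage 2 array. The relative median ranged from -0.60 without passage 7 replicate 2 to -0.01 without passage 2 replicate 1, and was -0.19 without passage 2 replicate 2 and -0.12 without passage 7 replicate 1.

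Fibroblast markers were well above background on all arrays for 9 of 9, with 2 called lower, Pdgfra and Lum. On both passage 2 arrays 9 of 9 epithelial and 8 of 8 endothelial markers also were, and on both passage 7 arrays 7 and 6 of these. Detection at passage 2 thus does not set fibroblasts apart from these cell types. The summed level of the fibroblast markers was 20317% and 19182% of the array's 75th percentile at passage 2 and 22644% and 32181% at passage 7. Called counts in these short marker lists stand against 10% of all genes tested called higher and 9.45% called lower. Macrophage markers had 3 falls of 6 tested, and their sum went from 180% and 172% to 76.9% and 95.8%. From 62.8% to 79.2% of each sum was Csf1r, and without it the sums were 37.4% and 35.9%, then 28.6% and 25.3%. Fcgr1, like Kit and the megakaryocyte marker Pf4, was tested only through passage 2. The fall of Fcgr1 was to a level not well above background and gives no bound on its size. Ptprc, the pan-leukocyte gene, was not well above background on any array. Epithelial markers had 3 falls and 2 rises of 9, with sums of 125% and 112%, then 46.4% and 60.4%. Trophoblast markers had 2 rises of 6 tested, Prl3d1 and Prl2c2, with sums of 53.8% and 38.3%, then 114% and 131%. Gcm1 and Elf5 were not well above background on any array. Mast cell markers, which include Kit, summed to 58.7% and 53.5%, then 48.3% and 81.4%, with 1 rise and 1 fall, and Fcer1a and Ms4a2 were not well above background. Sums of melanocyte markers ranged from 3.37% to 15.2%, with 1 rise of 3 tested (Mlana) and with Tyrp1 and Tyr not above background, and those of endothelial markers (1 rise) and megakaryocyte markers (1 fall) from 165% to 290% on all 4 arrays. The part of these cell types in the members' changes was not tested.

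Likeness to Fgf10 and Hgf was measured as the Euclidean distance over the 4 arrays after each gene's own mean was removed, among 13811 genes. Closest to Fgf10 were Rab3b (distance 0.12, change 2.17) and Dbndd2 (0.14, 2.19). Closest to Hgf were Lhx8 (0.08, -2.17), Slc6a15 (0.09, -2.19) and Fam189a1 (0.09, -2.08). With 4 arrays in 2 groups, such likeness mostly means a change of the same size.

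Depth of signal differed between arrays. Its 75th percentile, after processing by the scanner software, was 1024 and 1404 units at passage 2 and 964 and 402 units at passage 7. The share of spots well above background ran from 65.8% (passage 7 replicate 2) to 72.7%. No member spot was saturated or marked as an outlier. The scaling bears on how many genes count as higher. The authors' deposited table gave 730 genes higher and 1337 lower, median scaling 1234 and 1764, and quantile normalisation 1104 and 1510. Under quantile normalisation Ext1 (0.71), Hgfac (0.79) and Gas6 (0.63) did not pass. Plain normexp called 0 genes by limma, while 665 had an unadjusted p under 0.05. With 1 array left out the count higher ranged from 462 to 2070 and the count lower from 679 to 1387, and the lowest counts came without passage 7 replicate 2 (462 higher) and without passage 7 replicate 1 (679 lower).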

How the data were processed

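The labels' protocols describe Cy3 labelling of 0.5 ug total RNA and hybridisation of a custom Agilent array. Per the file headers, the scans were quantified by Agilent Feature Extraction 10.5.1.1, and the deposited spot files hold intensities: each spot's median, background and background-subtracted processed intensity, with flags. The authors' deposited table holds 1 log2 value per spot; its normalisation is not stated in the labels, its columns correlated best with their own arrays, and its medians were 6.30, 6.30, 6.24 and 6.14. Its scale and direction are those of log2 intensity, and its centring is unknown.

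Probes were named by RefSeq accession through a GRCm38.p6 gene table (31089 of 31850 matched, 97.6%). Log2 processed intensity minus the array's 75th percentile went into limma 3.58.1 under R 4.3.3 (lmFit, eBayes, 4 arrays, no covariate, two-sided, 2 residual degrees of freedom), with Benjamini-Hochberg adjustment over all genes or probes. Control spots and 14 to 61 outlier spots per array were left out. A gene was represented by its probe with the highest mean, and needed a value on all 4 arrays and signal well above background on both arrays of a passage. Calls needed an adjusted p under 0.05 and 2-fold. Probe-level p-values are named as such.

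All 9 members and 8 receptors were named whatever their values, with up to 3 rises and 3 falls per other list and the 3 genes most like 2 members. Results of some genes that this rule takes are not reported here. The members, lists and markers were chosen with earlier results of these data known. Normexp (offset 50) was planned on mean spot signal and run on the median. Replicate numbers did not pair the arrays (correlation of deviations -0.17). The number of arrays limits precision.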

Additional observations from a re-analysis of the deposited data

How the results depend on the processing

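Of the called members, Kitl, Fgf10 and Ereg kept their direction in all 18 alternatives and Hgf in 17. Alternatives that change only the test, the fold minimum or the filter keep the main log2 change, so they could not turn a direction. Plain normexp called 0 genes higher and 0 lower by limma (665 at an unadjusted p under 0.05) and 0 members in either direction. It gave Hgf 0.79, Fgf7 -0.0825, Fgf10 1.51, Kitl -0.42, Areg 0.60 and Ereg 1.01, and at single probes Hgf 1.04 and 0.79 and Fgf7 -0.0825 and -0.21. Fgfr1 was 0.014, Kit 0.85 and Hpse 0.88 there. Normexp with quantile normalisation called 546 genes higher and 715 lower and 1 member lower, with Hgf at -0.73 and Fgf7 probe 2 at -0.0307. With marked backgrounds replaced, an alternative added after seeing the data, it called 717 and 479 genes and 1 member lower, with Hgf -0.30, Pdgfa 1.31 (limma adjusted p = 0.041) and Areg 0.0019. Fgf7 was -0.0357 under quantile normalisation (probe 2 -0.0503) and -0.0195 under median scaling (probe 2 -0.0452). The authors' deposited table gave 730 genes higher, Pdgfa 1.08, Pdgfc -1.05 and Fgf7 probe 2 -0.0843. No filter on dim probes gave 901 genes higher. Pdgfa stayed at 1.14 but passed with a filter on all 4 arrays, with the mean of probes, and with an intensity trend (limma adjusted p = 0.045, 0.0499 and 0.020). The cause of these differences was not tested.

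The replicate number as a block gave 530 genes higher and 656 lower and 1 member higher, since Ereg at 1.19 no longer passed (limma adjusted p = 0.063), and called 0 of 30796 probes (9166 at an unadjusted p under 0.05). Deviations of same-numbered arrays were only weakly and negatively correlated (-0.17). The pairing with the numbers crossed, added after seeing the data, called 1657 genes higher and 1405 lower, with Pdgfa at 1.14 called. With 1 array left out, counts ranged from 462 to 2070 genes higher and 679 to 1387 lower, members higher from 1 to 3, Fgf7 from -0.18 to 0.48 (probe 1 -0.18 to 0.48, probe 2 -0.0818 to 0.33), Pdgfa from 0.77 to 1.51 and Ereg from 1.08 to 1.30. A lone array is then assumed to vary like the other passage's. Several dim genes, among them Hgf, Kit, Ndst4, Hpse and Mst1, moved with the background correction.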
